A study of Mus musculus with 8 samples.

Results

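The genes described here were silent in wild-type liver endothelial cells and switched on in every library labelled dKO. A gene was a member when its level, in counts scaled to a library total of 1000000 (CPM), was below 0.5 in all 4 WT libraries and at least 3 in all 4 dKO libraries. Genes on the sex chromosomes and genes named as collagens or solute carriers (Col or Slc followed by digits, the letter a and digits) were left out by the same rule, which removed 1 gene, the X-linked Srpx. Of the 52636 genes in the table, 23 were members, and all 23 code for proteins. They are S1pr3, Cacna1h, Elfn1, Lingo1 and Sel1l3 at the cell membrane, Saa2, 2610528A11Rik, Pi15, Rbp4, Sfrp4, Inha, Epo and Nxph4 among secreted proteins, the enzymes Aspg, Alpl, Gulo and Glt1d1, the nuclear factors Myb, Sall1, Zfp612 and Kctd15, and the intracellular proteins Tesc and Begain. Because the WT and dKO levels themselves chose these genes, the difference between the genotypes is given as a description, with no test.

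The libraries are polyadenylated RNA of endothelial cells, the lining cells of blood vessels, isolated from mouse liver and grown in culture. Groups are labelled WT or dKO, and dKO is not spelled out in the labels. The design text speaks of deleting Erg, Fli1 or both by adding 4-OHT, an active form of tamoxifen, to the medium for 48 hours, with 7 days of culture from that point. Another label places the 4-OHT treatment in mice, and neither the Cre driver nor what the WT cells carry is given there. Each genotype was studied at rest and 16 hours after IL1β and TNFα, a pair of inflammatory cytokines, were added together at day 7, which gives 4 groups of 2 libraries. Cells that were alive, free of CD45 and positive for CD31 and VE-cadherin were sorted before RNA extraction. The labels do not say whether replicates are separate animals or cultures, and the spread behind each p-value is that of these libraries alone. Sex-linked transcripts, given below with the deleted genes, differ between the replicate numbers of each genotype, so this spread includes a difference in the source of the cells.

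ERG and FLI1 are transcription factors of the ETS family that bind a short DNA core, switch on genes of endothelial identity and hold back genes of other cell lineages in adult vessels. A gene that is closed in one cell type may be kept so by a missing activator, by repressors or by its chromatin. Several members are best known from other tissues: Epo from kidney and fetal liver, Rbp4 and Saa2 from hepatocytes, Myb from blood progenitors, Alpl from bone, and Elfn1, Lingo1, Nxph4 and Begain from neurons.

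Erg, the first of the deleted genes, had 222, 205, 198 and 197 CPM in the WT libraries and 39.0, 95.3, 31.0 and 84.8 CPM in the dKO libraries. Values for several libraries are given throughout in the order resting replicate 1, resting replicate 2, cytokine replicate 1 and cytokine replicate 2. Fli1 had 183, 195, 87.1 and 94.6 CPM in WT and 21.3, 65.2, 11.03 and 33.2 CPM in dKO. WT and dKO did not overlap for either gene, but the replicate 2 dKO libraries kept 2.44 to 3.05 times as much of both transcripts as the replicate 1 dKO libraries. The endothelial junction gene Cdh5 showed the same order, with 159, 613, 259 and 565 CPM in dKO against 1400.3, 1439, 1372 and 1364 CPM in WT. Library totals ran from 23009062 to 26944030 counts, so that the 3 counts a zero still allows are 0.111 to 0.130 CPM, a limit that covers counting error only. The replicates also differ in sex-linked transcripts: Ddx3y, on the Y chromosome, was at 134, 0.0371, 105 and 0.0385 CPM in the WT libraries and 136, 94.5, 141 and 111 CPM in the dKO libraries, while Xist, the X-inactivation RNA, was at 0.545, 697, 0.881 and 446 CPM in WT and 0.826, 233, 1.18 and 161 CPM in dKO. The replicate 1 libraries of both genotypes carried Ddx3y and under 2 CPM of Xist, the replicate 2 WT libraries carried Xist and under 1 CPM of Ddx3y, and the replicate 2 dKO libraries carried both. Ptprc, which encodes the CD45 used to gate out blood cells, had 0 counts in 7 libraries and 1 count in dKO replicate 1 with cytokines.

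ERG and FLI1 belong to a family that reads GGAA cores, so the promoters of the members were searched for CCGGAA and CAGGAA, each a GGAA core with its flanking bases, and also for TGACTCA (the AP-1 motif), CAGCTG (an E-box) and TATAAA (the TATA box), on both strands. RefSeq promoters (GRCm38.p6, 250 bases before to 50 after the gene start) were found for 15 of the 23 members, and not for Cacna1h, Pi15, Sfrp4, Nxph4, Gulo, Glt1d1, Zfp612 or Sel1l3. Of the 15, 6 held an ETS core somewhere in the 300 bases, 3 held the E-box, 1 held TATAAA and 0 held TGACTCA. Over the 15365 promoters of protein-coding genes in the table, 43.2% held CCGGAA or CAGGAA, 15.3% the E-box, 12.9% TATAAA and 4.58% TGACTCA. A comparison of GC content or motif share between members and other genes is void, because fewer than 80% of the members have a promoter in the table. The 250 bases upstream of the start are shown for the 5 members with CCGGAA or CAGGAA in that stretch and for S1pr3, the member with the highest mean level. They read 5′ to 3′ on the strand of the gene, with motif matches in capitals (CCGGAA or TTCCGG and CAGGAA or TTCCTG for the ETS core, CAGCTG for the E-box).
S1pr3: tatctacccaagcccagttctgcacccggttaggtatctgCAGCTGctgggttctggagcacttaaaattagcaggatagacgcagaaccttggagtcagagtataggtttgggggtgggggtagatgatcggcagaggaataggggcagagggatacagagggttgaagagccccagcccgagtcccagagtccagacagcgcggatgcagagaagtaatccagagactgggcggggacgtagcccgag
Elfn1: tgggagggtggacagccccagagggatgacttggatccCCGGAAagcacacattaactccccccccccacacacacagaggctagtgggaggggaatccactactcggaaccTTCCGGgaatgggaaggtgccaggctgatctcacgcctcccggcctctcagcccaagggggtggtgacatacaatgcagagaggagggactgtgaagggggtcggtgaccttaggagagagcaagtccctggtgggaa
Rbp4: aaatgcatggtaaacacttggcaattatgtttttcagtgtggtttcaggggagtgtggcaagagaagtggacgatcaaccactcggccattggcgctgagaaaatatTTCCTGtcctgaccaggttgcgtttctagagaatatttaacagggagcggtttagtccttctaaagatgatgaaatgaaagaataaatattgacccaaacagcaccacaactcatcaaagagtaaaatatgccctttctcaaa
Myb: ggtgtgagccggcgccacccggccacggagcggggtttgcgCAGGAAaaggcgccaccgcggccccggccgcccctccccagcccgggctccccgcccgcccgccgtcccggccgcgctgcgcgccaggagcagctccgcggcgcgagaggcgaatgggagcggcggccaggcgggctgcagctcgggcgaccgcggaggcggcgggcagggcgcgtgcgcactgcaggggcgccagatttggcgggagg
Alpl: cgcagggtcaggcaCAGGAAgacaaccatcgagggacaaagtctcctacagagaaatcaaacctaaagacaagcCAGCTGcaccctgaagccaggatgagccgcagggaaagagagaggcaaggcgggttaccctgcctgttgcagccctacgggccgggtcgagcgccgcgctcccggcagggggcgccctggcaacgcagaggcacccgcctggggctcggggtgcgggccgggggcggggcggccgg
Lingo1: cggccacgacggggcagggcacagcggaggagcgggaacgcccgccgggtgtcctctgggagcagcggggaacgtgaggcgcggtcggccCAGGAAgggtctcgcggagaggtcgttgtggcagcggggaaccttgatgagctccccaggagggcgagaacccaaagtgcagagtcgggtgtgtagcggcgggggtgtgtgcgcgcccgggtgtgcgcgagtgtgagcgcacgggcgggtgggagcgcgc
The S1pr3 window is chr13:51408368-51408617 on the plus strand and has 1 E-box and no CCGGAA or CAGGAA, although GGAA with other flanking bases occurs in it. The Elfn1 window is chr5:139907616-139907865 on the plus strand and holds CCGGAA on both strands. The remaining windows lie on the minus strand, at chr19:38125322-38125571 (Rbp4), chr10:21160985-21161234 (Myb), chr4:137796385-137796634 (Alpl) and chr9:56796311-56796560 (Lingo1). Rbp4 has its match in the TTCCTG orientation, Myb and Lingo1 have 1 CAGGAA each, and Alpl has CAGGAA followed by an E-box. Each match is a stretch of letters and no evidence of binding.

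The members lie apart in the genome. On GRCm38, 5 of the 23 are on chromosome 5 (Sel1l3, Tesc, Glt1d1, Epo and Elfn1), which is 21.7% of members against 6.07% of protein-coding genes, and no other chromosome holds more than 2. No member lies within 200 kb of another, and the closest pair, Epo and Elfn1, is 2.37 Mb apart. Epo spans chr5:137483020-137533242, minus strand, and 12.2% of its exon bases are shared with Gnb2, which stood at 215, 208, 226 and 216 CPM in dKO and 222, 230.5, 262 and 232 CPM in WT. The Epo counts are therefore uncertain, although Gnb2 was as high in WT, where Epo took at most 2 counts. Saa2, at chr7:46751790-46754313, plus strand, has a near-identical copy in Saa1, so reads of the pair could be split between them.

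In the WT libraries the members were at or near zero. Of the 92 values (23 genes in 4 libraries), 22 were 0 counts, the highest was 13 counts, and the sum over all members was 55, 76, 51 and 83 counts. No member was at 0 in all 4 WT libraries, and 15 were at 0 in at least 1. In dKO the same sum was 8031, 4767, 9846 and 4543 counts, or 349, 207, 399 and 189 CPM, and the median member stood at 10.996, 6.81, 10.7 and 7.19 CPM. Mean dKO levels ran from 4.15 CPM (Kctd15) to 44.8 CPM (S1pr3), with 7 members under 10 CPM in every dKO library and 2, Cacna1h and Elfn1, above 10 CPM in every one. They are a small part of what was silent in WT: 33695 genes passed the WT limit and the exclusions, and 0.0683% of them were members. No gene had the reverse pattern of at least 3 CPM in every WT library and under 0.5 CPM in every dKO library. Erg and Fli1 themselves stayed above that dKO limit, so this absence does not measure how much was lost in dKO.

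**Figure D1:**
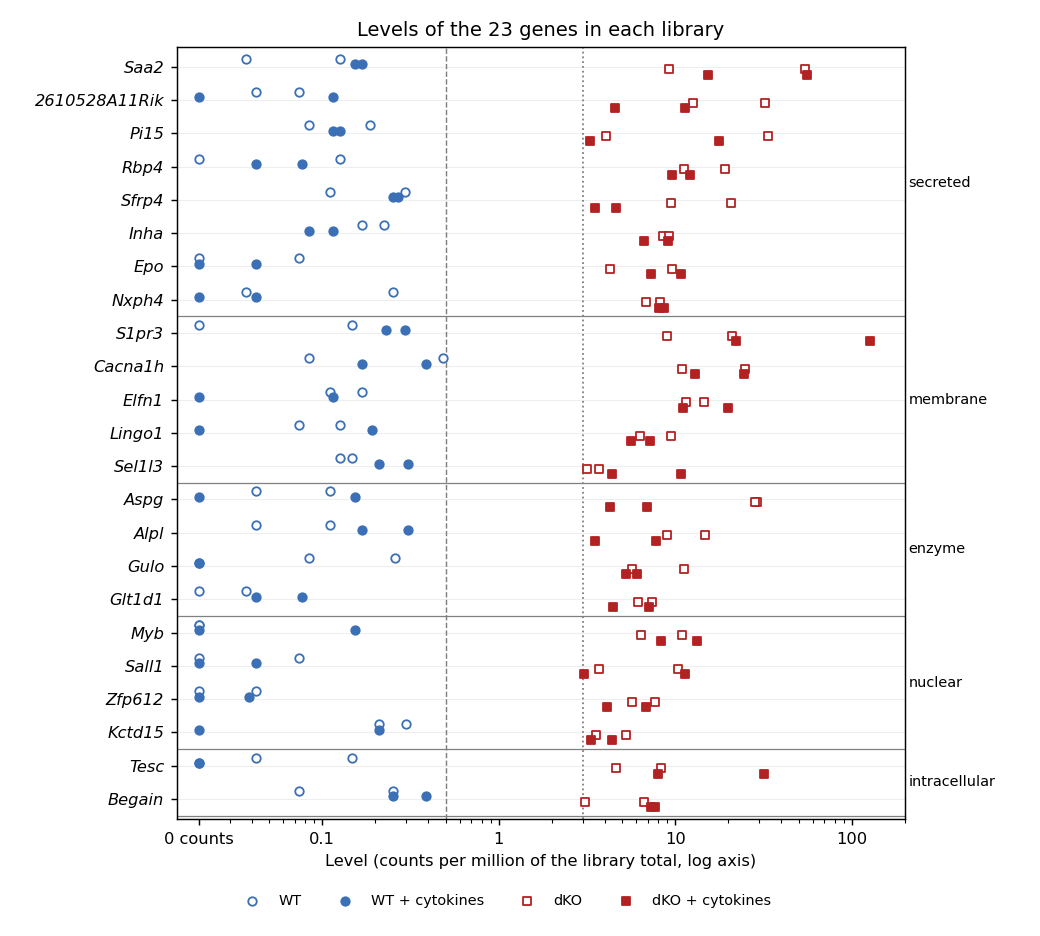
CPM of the 23 members in each of the 8 libraries, on a log axis, with WT as blue circles, dKO as red squares, filled symbols for cytokines and 0 counts drawn at the left edge. Dashed and dotted lines mark the limits of 0.5 and 3 CPM. Every WT value lies below 0.5 CPM and every dKO value at or above 3 CPM, as the rule required, with S1pr3 reaching 127 CPM in dKO replicate 1 with cytokines.

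Among the secreted members, Saa2 encodes an acute-phase serum amyloid A protein. Saa2 took 3, 1, 4 and 4 counts in the WT libraries and stood at 54.5, 9.28, 55.5 and 15.3 CPM in the dKO libraries. The dKO libraries of replicate 1 were thus several times above those of replicate 2. 2610528A11Rik took 1, 2, 0 and 3 counts in the WT libraries and stood at 32.4, 12.5, 11.4 and 4.53 CPM in the dKO libraries. This gene encodes the small secreted peptide known as GPR15 ligand, and its receptor gene Gpr15 had 0 counts in all 8 libraries. Pi15 took 2, 5, 3 and 3 counts in the WT libraries and stood at 33.7, 4.03, 17.8 and 3.28 CPM in the dKO libraries. Pi15 belongs to the CAP family of cysteine-rich secreted proteins, and its replicate 2 levels were the farthest below replicate 1 of any member at rest. Rbp4 took 3, 0, 1 and 2 counts in the WT libraries and stood at 19.04, 11.1, 12.2 and 9.56 CPM in the dKO libraries. Rbp4 carries retinol in blood, and its lowest and highest dKO values were closer together than those of Saa2 or Pi15. The other secreted members were Sfrp4, a Wnt antagonist, at 3.49 to 20.6 CPM in dKO, Inha, the inhibin alpha subunit, at 6.65 to 9.28 CPM, Epo, the hormone that drives red cell formation, at 4.25 to 10.8 CPM, and Nxph4, a neurexin ligand, at 6.81 to 8.65 CPM.

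At the membrane, S1pr3 is a receptor for sphingosine 1-phosphate and lies at chr13:51408639-51422797, plus strand. S1pr3 took 0, 4, 7 and 6 counts in the WT libraries and stood at 21.1, 8.94, 127 and 22.2 CPM in the dKO libraries. Its level in dKO replicate 1 with cytokines stood far above the other dKO libraries. Cacna1h took 2, 13, 4 and 10 counts in the WT libraries and stood at 10.996, 24.8, 12.9 and 24.7 CPM in the dKO libraries. Cacna1h encodes a T-type calcium channel subunit, and it is the member nearest to the WT limit, at 0.482 CPM in WT replicate 2. Unlike most members it was higher in the replicate 2 dKO libraries. Elfn1 took 4, 3, 0 and 3 counts in the WT libraries and stood at 14.5, 11.5, 19.8 and 11.02 CPM in the dKO libraries. Elfn1 is a leucine-rich synaptic adhesion protein and its dKO values lay within 11.02 to 19.8 CPM. Lingo1 took 3, 2, 0 and 5 counts in the WT libraries and stood at 6.30, 9.46, 5.64 and 7.19 CPM in the dKO libraries. Lingo1, a leucine-rich partner of the Nogo receptor, lay within 5.64 to 9.46 CPM in dKO.

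All 4 enzymes are given by library. Aspg took 1, 3, 0 and 4 counts in the WT libraries and stood at 29.0, 28.4, 4.26 and 6.94 CPM in the dKO libraries. Aspg encodes an asparaginase, and its resting dKO levels agreed while both cytokine libraries were lower. Alpl took 1, 3, 4 and 8 counts in the WT libraries and stood at 14.7, 8.98, 7.75 and 3.49 CPM in the dKO libraries. Alpl is the tissue-nonspecific alkaline phosphatase that frees phosphate during mineralisation. Gulo took 2, 7, 0 and 0 counts in the WT libraries and stood at 11.2, 5.73, 6.04 and 5.24 CPM in the dKO libraries. Gulo makes the last step of vitamin C synthesis in the mouse. Glt1d1 took 0, 1, 1 and 2 counts in the WT libraries and stood at 7.43, 6.12, 4.46 and 7.11 CPM in the dKO libraries, and it is named for a glycosyltransferase domain.

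Of the nuclear members, Myb is a transcription factor of blood progenitors. Myb took 0, 0, 0 and 4 counts in the WT libraries and stood at 10.996, 6.38, 13.3 and 8.36 CPM in the dKO libraries. Only WT replicate 2 with cytokines held any Myb count. Sall1 took 0, 2, 1 and 0 counts in the WT libraries and stood at 10.4, 3.69, 11.3 and 3.03 CPM in the dKO libraries. Sall1 is a zinc finger factor of organ development, and it is the member nearest to the dKO limit, at 3.03 CPM. Zfp612 took 1, 0, 0 and 1 counts in the WT libraries and stood at 7.69, 5.73, 6.86 and 4.12 CPM in the dKO libraries. Zfp612 is a zinc finger protein, and its 4 dKO values lay between 4.12 and 7.69 CPM. Kctd15 took 5, 8, 5 and 0 counts in the WT libraries and stood at 3.56, 5.29, 3.33 and 4.41 CPM in the dKO libraries. Kctd15, which inhibits AP-2 transcription factors in neural crest, had the lowest mean level of the members. The intracellular members were Tesc, a calcium-binding regulator of a sodium-proton exchanger, and Begain, a protein linked to the postsynaptic scaffold. Tesc took 1, 4, 0 and 0 counts in the WT libraries and stood at 8.34, 4.64, 31.7 and 7.94 CPM in the dKO libraries. Begain took 6, 2, 6 and 10 counts in the WT libraries and stood at 3.09, 6.68, 7.26 and 7.65 CPM in the dKO libraries. Tesc was highest in dKO replicate 1 with cytokines, as S1pr3 was, and Begain was lowest in dKO replicate 1 at rest.

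The cut-offs divide neighbouring genes that look alike. Just inside the WT limit were Cacna1h (0.482 CPM) and Begain (0.385 CPM), and just outside it were Chrm3 and Tlr5, each with 0.503 CPM in WT replicate 1 and at least 3.37 CPM in every dKO library. Just inside the dKO limit were Sall1 (3.03 CPM) and Begain (3.09 CPM). Just outside it were Rasl12 (lowest dKO value 2.95 CPM) and the second T-type channel gene Cacna1g (2.82 CPM). Per kilobase of exon, the order of members changed: the mean dKO level was highest for 2610528A11Rik at 18.4 RPKM (CPM per kilobase), then Saa2 at 13.4, S1pr3 at 10.04, Rbp4 at 9.67 and Epo at 9.32 RPKM, and lowest for Sel1l3 at 0.558 RPKM.

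The members were unevenly carried by the dKO replicates. At rest, the median ratio of replicate 2 to replicate 1 over the 23 members was 0.609, and with cytokines it was 0.674. Over the 10722 genes with at least 3 CPM in all dKO libraries the medians were 1.06 and 1.04. Replicate 2 was lower for 17 members at rest and for 15 with cytokines, against 39.0% and 41.0% of those 10722 genes. The ratio at rest ran from 0.120 for Pi15 to 2.25 for Cacna1h, and with cytokines from 0.174 for S1pr3 to 1.91. Lower in replicate 2 under both treatments were 14 members, and higher under both were 5: Cacna1h, Begain, Lingo1, Kctd15 and Inha. The remaining 4 changed order with the treatment. The members were not set against other genes raised in dKO, so the lower replicate 2 level is not shown to be particular to them. On the axis of largest variation over all tested genes, dKO replicates 1 and 2 stood at 102 and 51.2 at rest. With cytokines they stood at 89.2 and 42.9, and the WT libraries at -85.8 to -57.6, so replicate 2 lay nearer WT. In the dKO libraries the replicate 2 to replicate 1 ratio was 2.44 and 2.74 for Erg, 3.05 and 3.01 for Fli1 and 3.86 and 2.18 for Cdh5. With 1 library each there is no test of these ratios, and the part that the remaining Erg and Fli1 play in them was not tested. In bulk RNA, fewer cells carrying a transcript and less of it per cell cannot be told apart. If only the replicate 1 dKO libraries had been required to reach 3 CPM, 45 genes would have met the rule, and 29 with only the replicate 2 libraries.

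**Figure D2:**
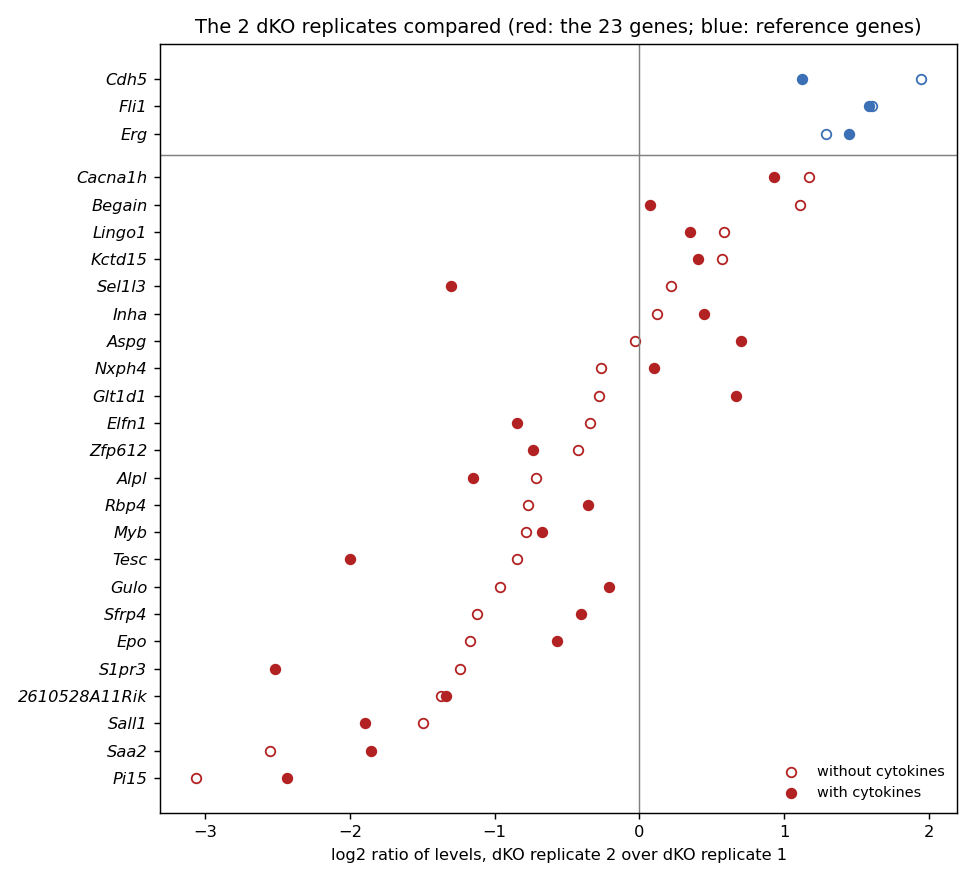
Ratio of dKO replicate 2 to replicate 1 (log2 axis) for each member (red) without (open) and with (filled) cytokines, with Erg, Fli1 and Cdh5 in blue. Most members lie below equality, with medians of 0.609 at rest and 0.674 with cytokines, whereas Erg, Fli1 and Cdh5 lie above it.

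The rule set no direction for the response to IL1β and TNFα within dKO cells, and that response was tested. It did require at least 3 CPM under both treatments, so genes that cytokines took below that level, or lifted from below it, are not among the members. Of the genes silent in WT, 13 reached 3 CPM in both resting dKO libraries but not in all 4, and 10 did so in both cytokine dKO libraries only. Aspg fell: at rest it stood at 29.0 and 28.4 CPM and with cytokines at 4.26 and 6.94 CPM, with no overlap. Its log2 change was -2.23 ± 0.45 (SE), adjusted p = 0.0427 (edgeR's quasi-likelihood test, Benjamini-Hochberg over 15698 genes, 2 libraries against 2), or 4.70-fold lower, and it was lower in both replicate pairs. Aspg was the 1 member of 23 called lower, where 2.06% of all genes tested were. No member was called higher, where 3.5% of all genes tested were. At an unadjusted p under 0.05, 2 members were higher and 2 lower, against 12.9% and 10.5% of all genes. The median log2 change was -0.05 over members and -0.01 over all genes tested. The same fit called 18 of the 26 listed NF-kB target genes higher. The Aspg call did not hold when WT replicate 1 or 2, dKO replicate 1 or 2, or dKO cytokine replicate 1 or 2 was left out (adjusted p from 0.0675 to 0.155), nor in a fit of the 4 dKO libraries alone (adjusted p = 0.107). Without dKO replicate 2, Sfrp4 was the member called lower. DESeq2 called 2 members lower, Aspg and Sfrp4, and 0 higher, where 4.86% and 6.64% of its genes were.

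Because libraries of the same number and genotype deviated together, a fit with the replicate number as a block was also made, and it called more members. With the block, Aspg fell by 2.25 on the log2 scale (adjusted p = 0.00037, edgeR), and 3 further members fell. The log2 change was -1.35 ± 0.17 (SE), adjusted p = 0.00124 for 2610528A11Rik, -1.69 ± 0.24 (SE), adjusted p = 0.00199 for Sfrp4 and -0.99 ± 0.20 (SE), adjusted p = 0.00871 for Alpl. Sfrp4 took 7, 3, 6 and 7 counts in the WT libraries and stood at 20.6, 9.50, 4.62 and 3.49 CPM in the dKO libraries. Both Sfrp4 values with cytokines were below both at rest. The 3 members called higher with the block were S1pr3, Tesc and Sel1l3, with log2 changes of 2.16 ± 0.38 (SE), adjusted p = 0.0262, 1.54 ± 0.30 (SE), adjusted p = 0.0214 and 1.16 ± 0.35 (SE), adjusted p = 0.0467. Sel1l3 took 3, 4, 5 and 8 counts in the WT libraries and stood at 3.17, 3.69, 10.7 and 4.36 CPM in the dKO libraries. Sel1l3, a membrane protein related to a factor of protein degradation in the endoplasmic reticulum, rose from 3.17 to 10.7 CPM in replicate 1 and stood at 3.69 and 4.36 CPM in replicate 2. Under the block 12.7% of all genes were called higher and 11.3% lower, against 13.0% and 17.4% of the members. In the fit without it the same changes missed the threshold: 2.46 ± 0.90 (SE), adjusted p = 0.181 for S1pr3, 1.75 ± 0.77 (SE), adjusted p = 0.256 for Tesc and 1.29 ± 0.45 (SE), adjusted p = 0.151 for Sel1l3. For 2610528A11Rik it gave -1.36 ± 0.68 (SE), adjusted p = 0.295, for Sfrp4 -1.77 ± 0.46 (SE), adjusted p = 0.0816 and for Alpl -0.94 ± 0.49 (SE), adjusted p = 0.308.

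By direction alone, 7 members were higher with cytokines in both dKO pairs, 11 lower in both and 5 mixed. The same split was not made over all genes tested, so no leaning of the members is read from it. Rbp4, Myb, Inha, Epo, Nxph4, Cacna1h, Lingo1, Sall1, Glt1d1, Gulo, Zfp612, Kctd15, Elfn1, Saa2, Pi15 and Begain did not pass in either of these fits. Without the block the adjusted p of these 16 ran from 0.361 to 0.971. In WT cells the rule kept every member below 0.5 CPM with and without cytokines, so a gene that cytokines lift past that level in WT could not be a member, and the counts there are a description only. The members took 131 counts in the resting WT libraries and 134 in the cytokine-treated ones, with 8 members higher, 10 lower and 5 equal in counts.

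**Figure D3:**
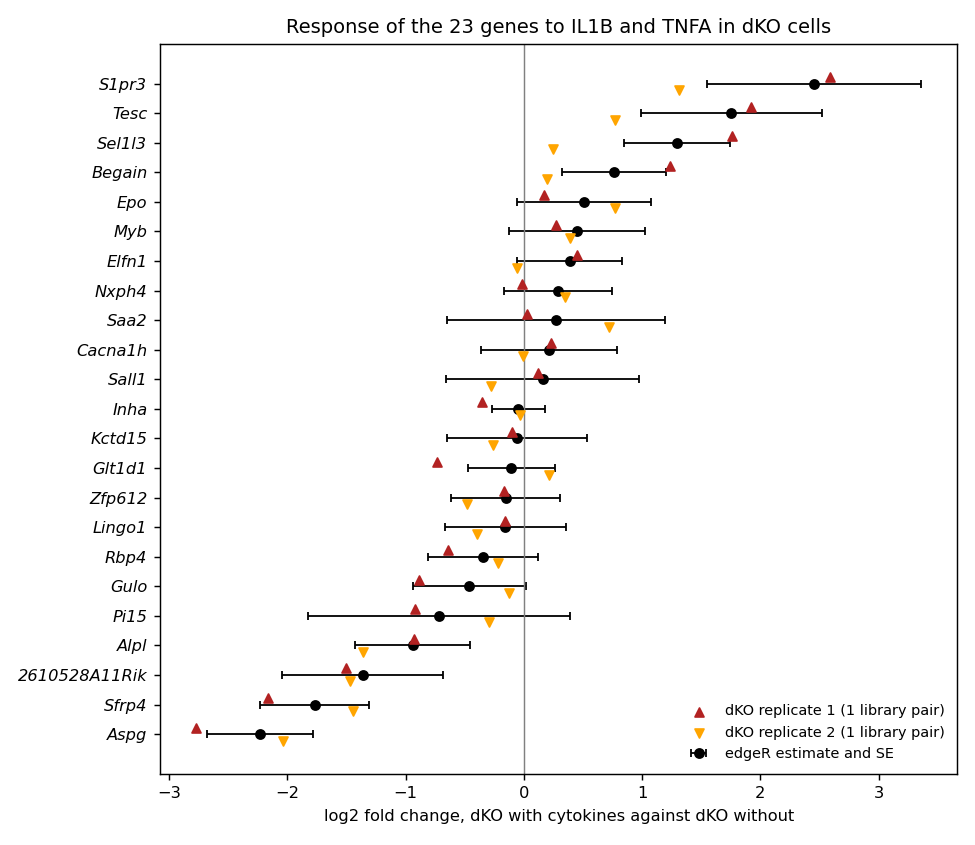
Log2 change with cytokines in dKO cells for each member: black points are the edgeR estimates without the replicate block, with their standard errors, and triangles are the ratios of the single library pairs. Aspg (-2.23), at the bottom, is the member past the threshold, while S1pr3 (2.46), at the top, has a wide error and unequal pairs.

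Relatives and pathway partners of the members, 80 genes chosen by family once the members were known, were compared between resting dKO and WT. Of the 55 tested, 19 were higher (34.5%) and 3 lower (5.45%), where 13.4% and 9.66% of all genes tested were, and 33 did not pass. Of the 55, 3 were silent in WT and could be tested only through dKO, and 1 of these, Cacna1g, is among the higher. Saa1 and Enpp1, also among the higher, exceeded 0.5 CPM in only 1 WT library each, at 0.732 and 0.594 CPM. The dKO libraries may therefore have carried these 2 genes past the filter on low counts as well. With the replicate block the counts were 31 and 10, but there the genotypes differ between blocks, so the error leaves out the spread between replicates. Both counts fell without WT replicate 1, WT replicate 2 or dKO replicate 1, and more relatives were lower without both replicate 2 dKO libraries. The share of all genes called in the block fit and in these fits is not given here. No shift between fits is therefore read as a result about the relatives. Around S1pr3, the kinase Sphk1 that makes its ligand rose, with a log2 change of 5.30 ± 0.40 (SE), adjusted p = 0.00132 (edgeR), while S1pr1, the main endothelial receptor of the family, fell (-0.98 ± 0.13 (SE), adjusted p = 0.00634). S1pr1 stood at 617, 622, 686 and 672 CPM in WT and 241, 328, 368 and 407 CPM in dKO. The other serum amyloid genes were higher as well, by 7.39 for Saa1, 4.27 for Saa3 and 2.84 for Saa4 on the log2 scale. Saa1 lost its call with no filter on low counts and without WT replicate 1, WT replicate 2 or dKO replicate 1, Saa3 without either WT replicate, and Saa4 without WT replicate 1.

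Cacna1g, the T-type channel gene closest in kind to Cacna1h, rose by 4.26, while Cacna1i was too low to test. The Wnt antagonists Frzb (2.87 ± 0.23 (SE), adjusted p = 0.00145) and Sfrp2 (5.76 ± 1.10 (SE), adjusted p = 0.019) rose, and Sfrp1 at 0.84 did not pass. The Sfrp2 call was lost with no filter on low counts and without WT replicate 1, dKO replicate 1 or both replicate 2 dKO libraries. Of the partners of Epo, the oxygen-sensing enzyme gene Egln3 rose (2.02 ± 0.12 (SE), adjusted p = 0.000773), as did Vegfa (2.96 ± 0.35 (SE), adjusted p = 0.00485), the endothelial growth factor that shares hypoxic control with Epo. The receptor gene Epor did not pass (2.24 ± 0.78 (SE), adjusted p = 0.08), nor did Epas1 or Hif1a, the oxygen-regulated factors. The CAP-family gene Crispld2 rose by 2.88, and Inhba, a subunit that pairs with Inha, by 1.05, a call that was lost without WT replicate 1 or 2. Inhbb, which also encodes such a subunit, did not pass (-1.11 ± 1.02 (SE), adjusted p = 0.454, edgeR). Asns, which makes the asparagine that Aspg breaks down, fell (-1.42 ± 0.30 (SE), adjusted p = 0.0231), and Nrxn2, a neurexin, fell (-1.76 ± 0.35 (SE), adjusted p = 0.0183). Both calls were lost without WT replicate 1, WT replicate 2 or dKO replicate 1. Ttr, the blood partner of Rbp4, had 0 counts in all 8 libraries, and 22 of the 80 relatives were below 0.5 CPM in every library.

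The protein-coding genes next to each member were examined for a shared pattern. Of 46 such neighbours, 40 lay within 200 kb, 27 were tested, 8 were higher in resting dKO than in WT (29.6%) and 2 were lower (7.41%), where 13.4% and 9.66% of all genes tested were. The median log2 change of the 27 was 0.23, against 0.02 over all genes tested, and 18 of the 46 were below 0.5 CPM in all 8 libraries. Fewer neighbours were called in both directions when WT replicate 1, WT replicate 2 or dKO replicate 1 was left out. The share of all genes called in those fits is not given here, so this drop is not read as a result about the neighbours. Lrp1, an endocytic receptor gene 3.60 kb from Nxph4, rose the most of the neighbours that kept their call under all alternatives. Lrp1 stood at 4.49, 4.01, 3.15 and 3.62 CPM in WT and at 260.2, 207, 172 and 137 CPM in dKO, a log2 change of 5.94 ± 0.23 (SE), adjusted p = 0.000351 (edgeR). The groups did not overlap. Cdhr1, a photoreceptor cadherin gene 3.79 kb from 2610528A11Rik, stood at 1.01, 1.67, 0.461 and 1.35 CPM in WT and 48.0, 30.0, 16.2 and 13.9 CPM in dKO (5.01 ± 0.54 (SE), adjusted p = 0.00411). Clu, which encodes the chaperone clusterin and lies 5.24 kb from Gulo, rose by 2.21. Clu stood at 4660, 4832, 3643 and 3931 CPM in WT and 18984, 20694, 14884 and 14003 CPM in dKO, far above Gulo. Whether Clu reads add to the Gulo counts was not tested. Obsl1, 0.625 kb from Inha, rose by 3.35 and Epdr1, 3.18 kb from Sfrp4, by 2.51, and both calls were lost without WT replicate 1 or 2. Obsl1 also lost its call without dKO replicate 1, without both replicate 2 dKO libraries and with no filter on low counts. Saa1, described with its family, Rap1gap and Fbxo21 were the other higher neighbours, and Ece1 and Shmt2 the lower ones. These last 4 calls were lost without WT replicate 1 or 2, among other alternatives. Reads that run on from one gene into its neighbour were not separated here.

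**Figure D4:**
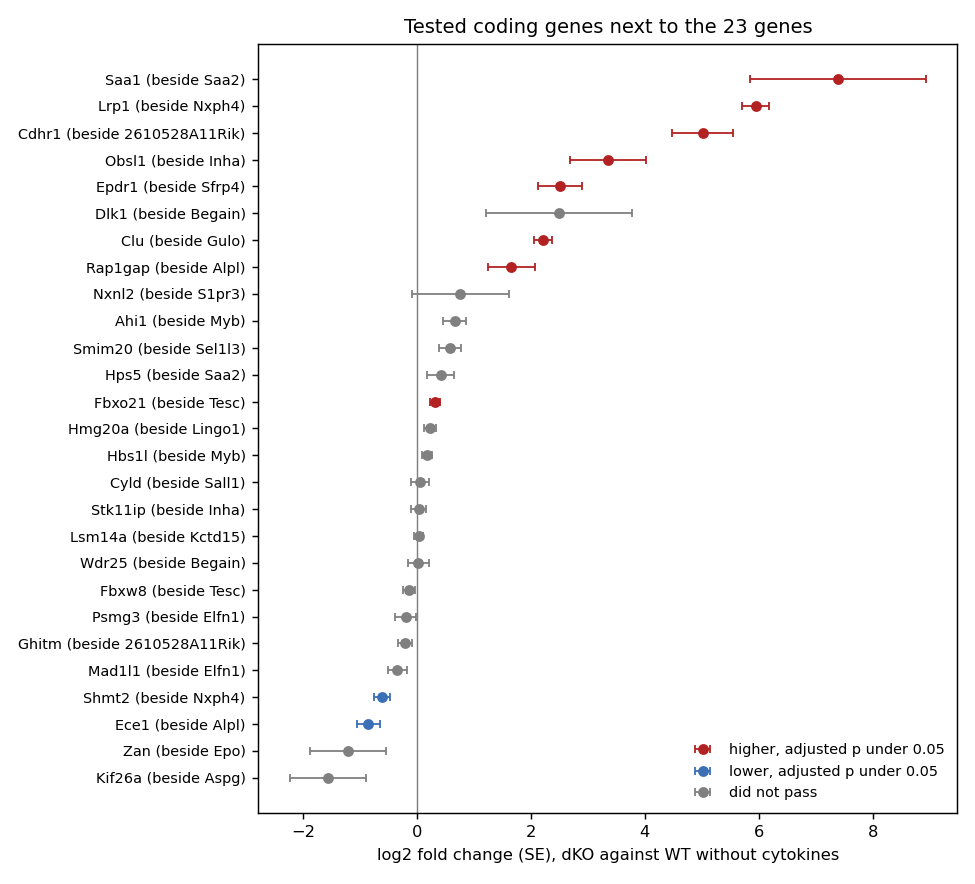
Log2 change between resting dKO and WT, with its standard error, for the 27 tested neighbours, each named with its member. Red marks the 8 called higher, with Saa1 (7.39), Lrp1 (5.94) and Cdhr1 (5.01) at the top, blue the 2 called lower and grey the 17 that did not pass.

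Gene lists for the functions of the members were read in resting dKO against WT, where 13.4% of all genes tested were higher and 9.66% lower. These shares are not given for the other fits named below, so shifts of the counts in them are not read as results about the lists. Of the 19 lists, 5 held a member, and each member is left out of the counts of its list, since the rule chose it for this difference. In the acute-phase list of Saa2, 11 of 18 other tested genes were higher in resting dKO and 1 was lower. Among the higher were Lcn2 (3.24 ± 0.36 (SE), adjusted p = 0.00401), an iron-scavenging protein, and C3 (1.76 ± 0.43 (SE), adjusted p = 0.0326), the central complement protein, whose call was lost without any 1 of the 4 WT libraries or dKO replicate 1. The number of higher acute-phase genes was 7 with no filter on low counts, and leaving out WT replicate 1, WT replicate 2 or dKO replicate 1 gave 3, 5 or 7. In the ion channel list of Cacna1h, 10 of 36 were higher and 5 lower. Of the 36, 8 were silent in WT and could pass the filter on low counts only through dKO, and 5 of the 10 higher genes are among them. Kcnj2, a potassium channel gene with the highest dKO level of the list, did not pass (1.00 ± 0.30 (SE), adjusted p = 0.0593), and Cacna2d1, a calcium channel subunit, was higher (0.46 ± 0.13 (SE), adjusted p = 0.0472). Leaving out WT replicate 1, WT replicate 2 or dKO replicate 1 gave 1, 2 or 4 higher and 1, 0 or 2 lower. The lower count was 3 without either WT cytokine library or without dKO replicate 2. The Cacna2d1 call was lost under most alternatives, DESeq2 and each WT library left out among them. Among the transcription factors of blood formation other than Myb, 3 of 11 were higher and 0 lower: Runx1, Tcf7 and Gfi1, with log2 changes of 1.54, 2.46 and 7.36. Gfi1 was silent in WT and could be tested only through dKO. The Runx1 and Gfi1 calls were lost without either WT replicate, that of Runx1 also without dKO replicate 1, and that of Tcf7 without WT replicate 2. Leaving out WT replicate 1 or 2 lowered the 3 to 1 or 0. Irf8, a factor of myeloid cells, did not pass (-1.43 ± 0.48 (SE), adjusted p = 0.0815). Among cartilage and bone genes other than Alpl, 3 of 5 tested were higher: Sox9 (4.88 ± 0.31 (SE), adjusted p = 0.00101), Runx2 (4.26 ± 0.46 (SE), adjusted p = 0.00373) and Cnmd (5.70 ± 0.62 (SE), adjusted p = 0.00425). Sox5 (1.10 ± 0.34 (SE), adjusted p = 0.0616) did not pass. Sox9 and Runx2 are the leading factors of cartilage and bone. Of the acute-phase genes tested 3 were silent in WT, with 0 of them higher, and of the cartilage and bone genes 0 were.

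Among hepatocyte genes other than Aspg, 4 of 5 tested were higher in dKO, and by CPM of the column totals none of the 5 was silent in WT. The 4 were Ahsg (8.48 ± 0.70 (SE), adjusted p = 0.00243, edgeR), Hp (6.11 ± 0.59 (SE), adjusted p = 0.00342), Trf (2.68 ± 0.27 (SE), adjusted p = 0.0029) and Hpx. The Hpx call was lost without WT replicate 1, WT replicate 2 or dKO replicate 1. With TMM-scaled CPM, Ahsg met the rule for members, so its rise is a description only. The summed level of the 26 genes, Aspg included, was 3.99 to 8.02 CPM in WT and 169 to 334 CPM in dKO. Aspg adds 4.26 to 29.0 CPM to the dKO sums, a part of the gap that the rule itself set. Of the 26, 10 had 0 counts in all 8 libraries, among them Ttr, Cps1, Cyp2e1, Cyp3a11 and Hnf4a, and Alb had 2 counts in dKO replicate 1 with cytokines and 0 elsewhere. Summed markers of other cell types the sort could hold were 9792 to 10541 CPM in WT and 14016 to 17071 CPM in dKO for 20 stellate cell and fibroblast genes, 9.02 to 21.97 and 57.6 to 257 CPM for 17 epithelial genes, 32.5 to 47.1 and 40.3 to 102 CPM for 22 neural and Schwann cell genes, and 5.74 to 6.96 and 4.51 to 9.05 CPM for 16 leukocyte genes. Of these lists, 5 of 14, 3 of 8, 6 of 13 and 0 of 4 tested genes were higher in resting dKO, with 0 lower. Silent in WT were 9 of the 20, 10 of the 17, 15 of the 22 and 13 of the 16 genes listed. Those of them that were tested could pass the filter on low counts mainly through dKO, so the numbers called higher are a description only. For 8 mesothelial genes the sums were 154 to 622 CPM in WT and 44.7 to 168 CPM in dKO (0 of 4 higher, 2 lower). For 19 muscle genes they were 74.6 to 97.2 and 96.6 to 132 CPM (2 of 9 higher, 1 lower). Here 4 of the 8 mesothelial and 13 of the 19 muscle genes were silent in WT, with the same limit. The 30 genes of endothelial identity summed to 10076 to 17242 CPM in WT and 2380 to 6369 CPM in dKO, where 7 were lower and 1 higher. The part that the cell makeup plays in the members' levels was not tested.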

How the data were processed

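The values are raw counts per Ensembl gene as deposited by the authors, whole numbers whose totals differ between libraries. The submitters' processing notes name FastQC 0.11.5, STAR 2.7.6a and GRCm38 without their roles. Not given in the sources used here are the counter, its annotation and the strand setting. The protocols in the labels name an unstranded and a stranded TruSeq kit without tying either to a library, so reads of overlapping genes may be shared.

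CPM used the column totals. Positions and symbols came from the GENCODE M21 annotation, which matched 52489 of 52636 genes. The test was edgeR 4.0.16 (R 4.3.3) on the counts of all 8 libraries, with TMM scaling, filterByExpr by group (15698 genes kept, all 23 members among them), 1 coefficient per group and a robust quasi-likelihood fit (4 residual degrees of freedom, common biological coefficient of variation 24.3%). P-values were two-sided and Benjamini-Hochberg adjusted over all genes, with a threshold of 0.05. Simulated counts for the cytokine comparison in dKO (15438 genes) gave back 21% of 2-fold and 98% of 4-fold changes, with 5 false calls among 124. The simulation gave every gene the same spread and drew each library independently. Members whose dKO replicates differed widely have a larger spread, so these shares can overstate what the test recovers for them. Alternatives were DESeq2 1.42.0, other scaling, no filter, fewer libraries, other limits of the rule and a replicate block.

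Whether equal replicate numbers pair libraries was checked by correlating deviations from the group mean. The correlation was 0.43 in WT and 0.69 in dKO, and 0.02 to 0.13 across genotypes. Xist and Ddx3y levels matched in the same way. Pairing within a genotype was inferred from this, since the labels do not state it, and the block was nested in genotype.

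The members, gene lists and relatives were chosen with earlier results of these data known. Per-library values are given for the 4 members of highest mean dKO level in each role and for those that a fit called, and ranges for the others. From the 5 lists with a member, that member and up to 3 genes of highest dKO level are named. Tcf7, Gfi1, Sox9, Hpx and the relatives and neighbours named were chosen after their values were seen. Promoter sequences are from RefSeq.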

Additional observations from a re-analysis of the deposited data

How the results depend on the processing

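The number of genes that meet the rule depends on its limits. It is 14 with a WT limit of 0.25 CPM, 57 with 1 CPM, 90 with a dKO limit of 1 CPM and 10 with 5 CPM. TMM scaling gives 27, which include all 23. Leaving out 1 library gives 23 to 30, and requiring only 1 dKO replicate pair, an alternative chosen after seeing the data as were those for neighbours, relatives and lists, gives 45 (without both replicate 2 libraries) or 29.

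For cytokines in dKO, the replicate block gives 3 higher and 4 lower members, DESeq2 0 and 2, and the 4 dKO libraries alone 0 and 0. The fit without both replicate 2 dKO libraries sets 1 library against 1, with all of its spread taken from the WT libraries. Its counts are therefore left out. The share of all genes called is given above for the block and DESeq2, and is not given for the other alternatives. Their counts are therefore not read as results about the members. Leaving out 1 library gives 0 to 1 higher and 0 to 1 lower, and where it leaves a group with a lone library, that library is assumed to vary like the other groups. No direction reversed among the members that passed the threshold in any of the fits, nor among 37 other named genes that were checked. Direction was not checked for the remaining members and named genes.

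In the dKO against WT comparison at rest, leaving out 1 library gives 3 to 9 higher and 0 to 3 lower neighbours, 6 to 22 higher and 1 to 4 lower relatives, 3 to 12 higher and 0 to 1 lower acute-phase genes, 1 to 10 higher and 0 to 6 lower ion channel genes, and 0 to 3 higher and 0 to 1 lower factors of blood formation, members left out. With the replicate block, 31 relatives are higher and 10 lower, 9 ion channel genes are lower and 2 factors of blood formation are lower, but its error between genotypes leaves out the spread between replicates. Without both replicate 2 dKO libraries 7 relatives and 2 factors of blood formation are lower. DESeq2 gives 1 lower factor of blood formation. With no filter on low counts, 7 acute-phase genes are higher and 0 lower. The share of all genes called is not given for these fits, and the cause of these shifts was not tested. Counts of cartilage, bone and hepatocyte genes stayed within 1.5 times in every setting run. In the simulated cytokine comparison in dKO, with 2 libraries a group, 2-fold changes were mostly below what the test could recover. Recovery was not simulated for dKO against WT.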
